A study of Mus musculus with 8 samples.

Results

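The genes of the agouti locus and of the melanocortin system were followed in the ovaries of Lethal Yellow (LY) mice. The members are the agouti gene itself (symbol a), Raly and Eif2s2, which lie within the deletion of the lethal yellow allele, the melanocortin receptor genes Mc1r, Mc2r, Mc3r, Mc4r and Mc5r, the hormone precursor gene Pomc, and the attractin gene Atrn. They were chosen by symbol, as all probes that the platform annotation assigns to one of these 10 genes alone. This gave 15 of the 36227 probes, and 10 of the 18069 genes named on the array. The symbol a has 1 probe, as have Eif2s2, Mc2r, Mc5r, Pomc and Atrn, while Raly, Mc1r and Mc3r have 2 each and Mc4r has 3. Where a gene has several probes, they are numbered here from the brightest down. A further probe, assigned to Raly together with another gene, was left out.

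RNA from 1 ovary of each female LY mouse, cleared of fat before extraction, was hybridised to CodeLink mouse oligonucleotide arrays, each mouse on an array of its own. All 8 mice were heterozygous C57BL/6J Ay/a, so that every mouse in both groups carried the deletion on 1 chromosome and the nonagouti allele a on the other. The vehicle group (4 mice) was gavaged daily with 0.1 ml of DMSO, and the pioglitazone group (4 mice) with pioglitazone in DMSO, for 60 days, from the age of 120 days to that of 180 days. For pioglitazone, an agonist of PPARγ, the labels give 0.1 mg per day and the study's methods 0.01 mg. Mice were from a breeding colony and were housed in groups, and neither litter nor stage of the estrous cycle is given. Non-mutant mice were not analysed here, so no value below can be set against a mouse with 2 copies of Raly and Eif2s2 or without the Ay allele.

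Agouti is a secreted protein that blocks melanocortin receptors. In the skin it acts on MC1R of pigment cells and turns pigment synthesis from black to yellow, and it needs attractin, a membrane protein, for this. The agonists of these receptors, ACTH and the melanocyte-stimulating hormones, are cut from the POMC precursor, and the receptors signal through Gs and cyclic AMP. In the Ay allele a deletion removes Eif2s2 and most of Raly and joins the Raly promoter to the agouti coding exons, so that agouti is made in nearly every tissue, where it blocks MC4R in the brain and leads to obesity. RALY is an RNA-binding protein of the hnRNP family, and EIF2S2 is the beta subunit of the initiation factor eIF2, which brings the initiator tRNA to the ribosome.

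Values are linear intensities divided by the median of each array, so that 1 is the level of the median probe of that array (relative intensity). The limit of sensitivity that the study applied is 0.2. Probes differ in how they bind, so where one probe is called brighter than another, this is not read as a higher transcript level. Correlations of log2 values between arrays ran from 0.937 to 0.989, and 47 to 211 spots per array were missing, with none among the 15 probes. Markers of the ovary were bright: the zona pellucida gene Zp3 averaged 39.5 with vehicle and 44.2 with pioglitazone, and the steroidogenic genes Hsd3b1 and Cyp11a1 averaged 221 and 53.0 with vehicle. A value over 0.2 alone does not mark a cell type, since 82.49% to 83.89% of spots per array reached it. The sum over 10 adipocyte markers was 159 in pioglitazone mouse 1 and between 29.1 and 90.6 in the other 7 mice. Values of that mouse are therefore given with and without it where it decides a result.

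The agouti probe was far above the limit of sensitivity in every ovary and had nearly the same mean in both groups. Its relative intensity was 140.4, 101, 61.9 and 102 in vehicle mice 1, 2, 3 and 4, and 128, 82.8, 73.1 and 122 in pioglitazone mice 1, 2, 3 and 4. The groups overlapped fully, and all 4 pioglitazone values lay between the lowest and the highest vehicle value. Group means were 102 ± 32 and 101 ± 27.6 (SD, n = 4 each). In limma, a linear model fitted across all 30634 probes tested, pioglitazone minus vehicle came to 0.02 as a log2 fold change (standard error 0.28, adjusted p = 0.995). The 95% confidence interval runs from a fold of 0.655 to one of 1.56, so changes up to these sizes are compatible with the values of these mice. Mice differed more than groups, since the highest value was 2.27 times the lowest, and the within-group SD of log2 values, 0.45, was larger than that of 78.3% of the probes tested. The direction of the small fold change depends on single mice: it was -0.20 without vehicle replicate 3, -0.11 without pioglitazone replicate 1 and -0.09 without pioglitazone replicate 4. The array does not separate transcripts of the Ay allele from those of the nonagouti allele. In whole ovaries, fewer cells of a type and less RNA per cell cannot be told apart, which holds for all values below.

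**Figure D1:**
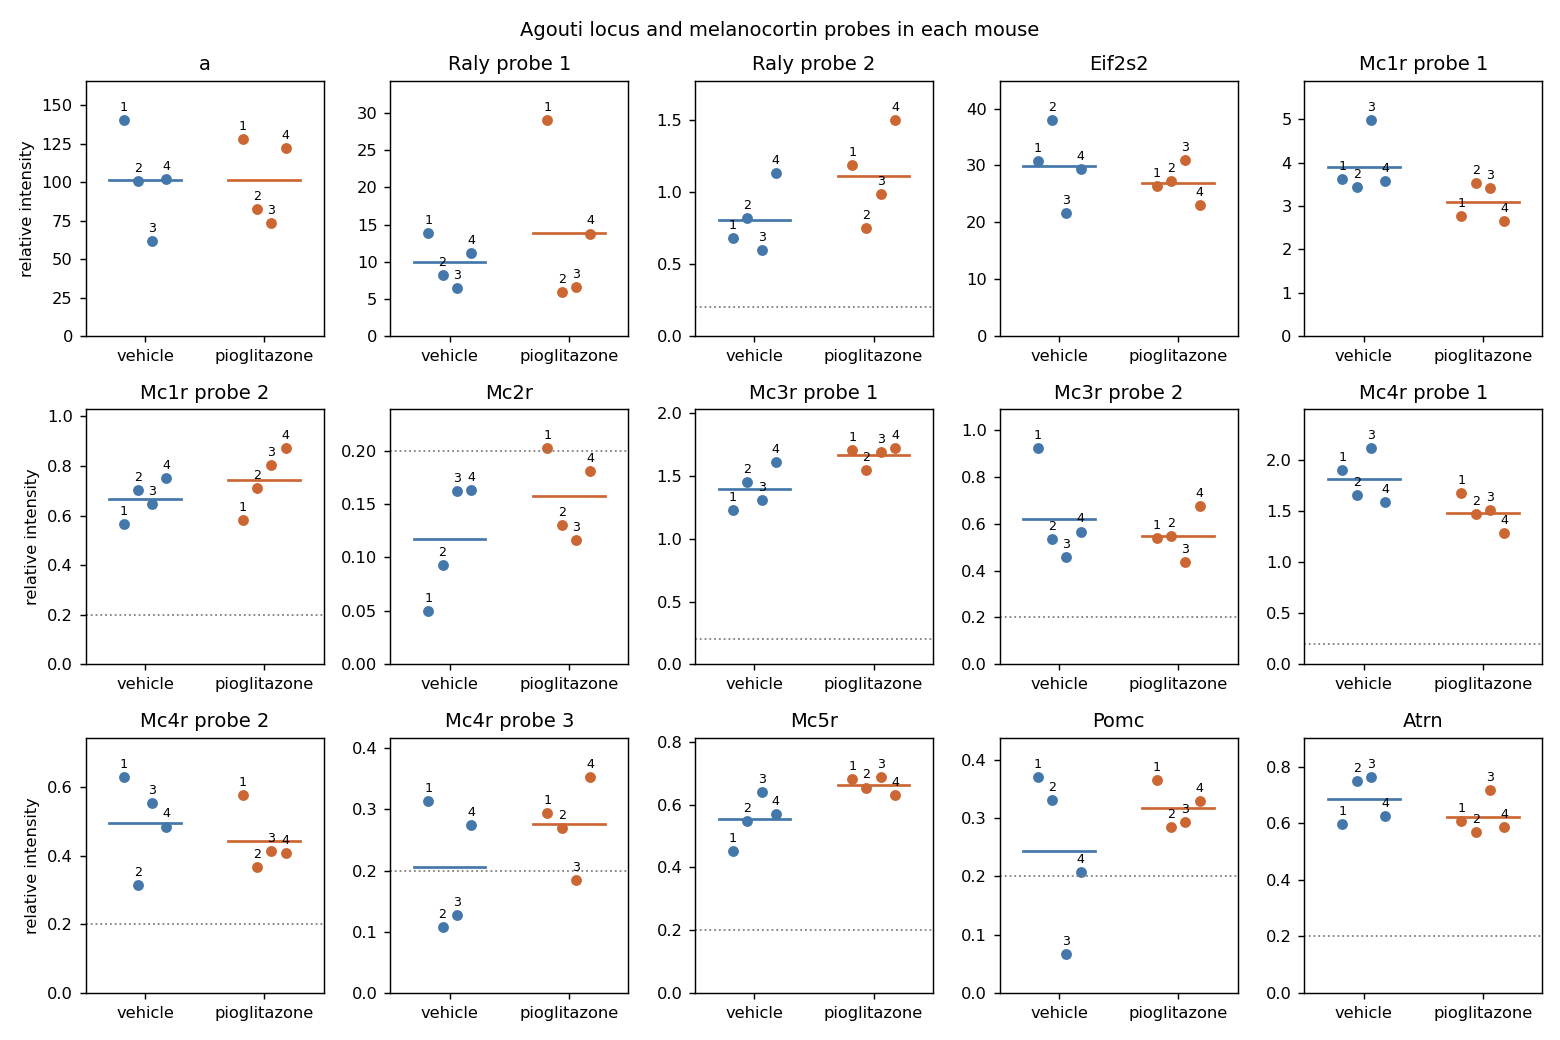
Relative intensity (linear axes from 0) of the 15 probes in each mouse, with vehicle-treated mice on the left and pioglitazone-treated mice on the right of each panel. Each point is a mouse, numbered by replicate, bars mark the group means, and a dotted line shows the limit of 0.2 in panels with all values under 2.5. The groups overlap in every panel, and the agouti means of 102 and 101 nearly coincide.

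Raly, which lends its promoter to agouti in the Ay allele and is left with 1 complete copy, varied widely between mice. The brighter of its probes was at 13.9, 8.22, 6.47 and 11.2 in vehicle mice 1, 2, 3 and 4, and at 29.1, 5.98, 6.54 and 13.8 in pioglitazone mice 1, 2, 3 and 4. Pioglitazone mouse 1 was the highest of the 8 mice and pioglitazone mouse 2 the lowest, so that the pioglitazone group spanned the whole vehicle range. Means were 9.94 ± 3.28 and 13.8 ± 10.8 (SD, n = 4 each), and the log2 fold change was 0.23 (standard error 0.48, adjusted p = 0.946 in limma). Without pioglitazone replicate 1, the mouse with the highest sum of adipocyte markers, it was -0.23. The part of adipose tissue in this value was not tested. The within-group SD of this probe, 0.83 on the log2 scale, was larger than that of 96.3% of the probes tested.

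The second Raly probe, assigned to the same transcript, was at 0.680, 0.816, 0.598 and 1.13 in vehicle mice 1 to 4 and at 1.19, 0.751, 0.988 and 1.5 in pioglitazone mice 1 to 4. It was higher with pioglitazone in 3 of the 4 pairs of mice with the same number, and the groups overlapped. The labels do not say what a shared number stands for, so such pairs are an assumption here and below. Means were 0.806 ± 0.234 and 1.11 ± 0.318 (SD, n = 4 each), so that the ratio was 1.37 and the log2 fold change 0.46 (standard error 0.26, unadjusted p = 0.112 and adjusted p = 0.844 in limma). In a paired model, blocked by replicate number, its unadjusted p in limma was 0.0464, where 8.60% of all probes were under 0.05. It was 0.0354 without vehicle replicate 4 (6.98% of all probes under 0.05) and 0.0381 without pioglitazone replicate 2 (4.80%), each with a log2 fold change of 0.63. Both Raly probes thus had positive log2 fold changes, and neither passed the test in the comparison of all 8 mice without blocks. Where on the transcript the probes lie is not given in the sources used here.

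Eif2s2, the other gene lost with the Ay deletion, varied less than agouti and Raly, its highest value being 1.76 times its lowest. It was at 30.8, 38.0, 21.6 and 29.3 in vehicle mice 1 to 4 and at 26.4, 27.3, 30.9 and 23.0 in pioglitazone mice 1 to 4. All pioglitazone values fell inside the vehicle range. Means were 29.9 ± 6.73 and 26.9 ± 3.24 (SD, n = 4 each), and the log2 fold change was -0.13 (standard error 0.19, adjusted p = 0.916 in limma), with a 95% confidence interval from a fold of 0.677 to one of 1.23. Both genes are present in 1 complete copy in every mouse analysed here, so the effect of the copy number on their level cannot be read from these arrays.

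The reference sequences at the starts of these genes are shown because the Raly start is the one that precedes agouti in the Ay allele, while the start of a is the one it replaces there. They are RefSeq windows on GRCm38.p6, from 250 bases before to 50 bases after a start, written 5′ to 3′ on the strand of the gene, for Raly at chr2:154790860-154791159 (plus strand), for a at chr2:155013320-155013619 (plus strand) and for Eif2s2 at chr2:154892857-154893156 (minus strand). Capitals mark matches to the GC box GGGCGG or its reverse complement CCGCCC and to the nuclear receptor half-site AGGTCA or its reverse complement TGACCT.
Raly: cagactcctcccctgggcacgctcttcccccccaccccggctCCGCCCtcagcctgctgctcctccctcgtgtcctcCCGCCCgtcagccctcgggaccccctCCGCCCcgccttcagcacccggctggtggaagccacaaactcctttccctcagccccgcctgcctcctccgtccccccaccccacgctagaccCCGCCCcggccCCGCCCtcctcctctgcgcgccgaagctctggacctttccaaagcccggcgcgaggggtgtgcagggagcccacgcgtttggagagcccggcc
a: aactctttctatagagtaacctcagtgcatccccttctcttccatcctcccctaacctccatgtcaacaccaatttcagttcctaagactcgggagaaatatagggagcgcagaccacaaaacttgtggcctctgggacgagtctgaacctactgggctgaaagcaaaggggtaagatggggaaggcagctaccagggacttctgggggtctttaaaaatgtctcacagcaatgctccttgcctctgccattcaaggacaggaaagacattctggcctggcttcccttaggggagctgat
Eif2s2: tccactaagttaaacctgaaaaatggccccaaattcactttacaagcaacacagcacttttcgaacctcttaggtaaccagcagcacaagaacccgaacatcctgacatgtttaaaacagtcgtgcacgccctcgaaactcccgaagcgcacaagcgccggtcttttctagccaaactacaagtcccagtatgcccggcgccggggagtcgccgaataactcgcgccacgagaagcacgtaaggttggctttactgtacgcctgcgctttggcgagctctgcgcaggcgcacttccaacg
The Raly window holds 5 GC boxes and 25 CpG dinucleotides, and 81.6% of all 32851 windows hold fewer CpGs. The window of a holds 0 GC boxes and 3 CpGs, with 23.3% of windows holding fewer, and that of Eif2s2 holds 0 GC boxes and 24 CpGs. GC boxes occur in 35.7% of all windows and the half-site in 16.3%. No half-site is found in these windows, while that of Pomc holds 1. The gene a has further starts that these windows do not cover, and a match describes letters only. The start of Raly is thus rich in CpG and GC boxes and the listed start of a is not.

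Because the Ay allele places agouti behind the Raly promoter, the levels of the locus genes were compared across the 8 mice. The brighter Raly probe and agouti rose and fell together, with a Pearson r of 0.82 on log2 values (2-sided exact permutation p = 0.0121, Benjamini-Hochberg adjusted p = 0.0363 over the 3 relations computed) and a Spearman rho of 0.90 (exact permutation p = 0.00456, adjusted p = 0.0137). Without vehicle mouse 3 and pioglitazone mouse 3, the mice farthest from the median of agouti, r was 0.81 (exact permutation p = 0.0542, n = 6). Agouti and Eif2s2 had an r of 0.23 (exact permutation p = 0.584, adjusted p = 0.818) and a rho of 0.07 (exact permutation p = 0.882, adjusted p = 1). Raly and Eif2s2 had an r of -0.10 (exact permutation p = 0.818, adjusted p = 0.818) and a rho of 0.00 (exact permutation p = 1, adjusted p = 1). Groups of 4 mice are too small for a correlation within each group, but with group means removed the r of agouti and Raly was again 0.82.

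The covariation of agouti and Raly was not particular to this pair. After removal of group means, 1600 of the 13678 probes searched (11.7%) correlated with agouti at least as closely as Raly did. The first principal component of all tested probes took 39.2% of the variance and set mice 1 and 4 of each group apart from mice 2 and 3. Agouti had an r of 0.91 with its scores, the brighter Raly probe 0.93 and Eif2s2 -0.03, as descriptions over 8 arrays. With deviations from both the group means and the means of each replicate number, which leave the 4 paired differences, the r of agouti and Raly was 0.11, and with quantile normalization it was 0.58 (exact permutation p = 0.126). The sum of the oocyte markers, over the 9 genes measured in all mice, was likewise highest in mice 1 and 4 of each group, at 114, 86.1, 83.0 and 124 in vehicle mice 1 to 4 and at 134, 100.4, 82.2 and 112 in pioglitazone mice 1 to 4. Of these genes 6 had both mice 1 and 4 above mice 2 and 3 in both groups, Zp3 being the brightest, while Gdf9, Nlrp5 and Figla did not, and Gdf9 (4.87) and Nlrp5 (3.22) were lowest of their group in pioglitazone mouse 1. The share of all probes with this order of mice was not computed, so the count of 6 cannot be set against it. The part of oocytes in the relation was not tested.

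**Figure D2:**
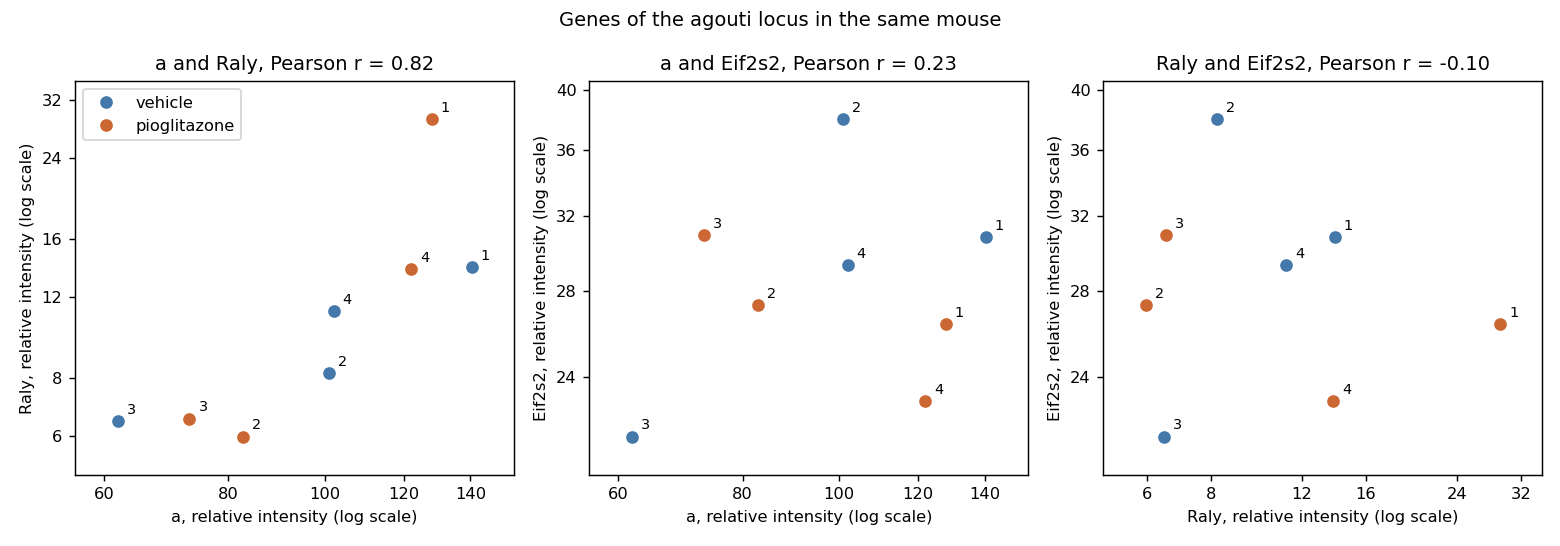
Relative intensity of agouti (a), the brighter Raly probe and Eif2s2 plotted against each other on log axes, with 1 point per mouse, labelled by replicate number, in the 4 vehicle-treated and 4 pioglitazone-treated mice. Agouti and Raly rise together (r = 0.82), with mice 1 and 4 of both groups above mice 2 and 3, while neither follows Eif2s2 (r = 0.23 and -0.10).

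The genes whose levels followed agouti most closely across the 8 arrays, among single-gene probes at 0.5 or more in every array and after removal of group means, were the zinc finger gene Zfp1 (Pearson r = 0.993), Herc1, a large ubiquitin ligase (0.990), the cochaperone gene Dnajc30 (0.986), the receptor gene Mrgprg (0.986) and Ndufs3, a subunit of respiratory complex I (0.986). Zfp1 ran from 34.0 in vehicle mouse 3 to 54.3 in vehicle mouse 1, the same mice that held the lowest and the highest agouti value. Of the probes searched, 638 had an r above 0.9, so these 5 are the top of a broad group and not a separate set.

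Mc1r, the receptor through which agouti changes coat colour, gave values of 3.63, 3.43, 4.99 and 3.59 in vehicle mice 1 to 4 and of 2.77, 3.54, 3.41 and 2.66 in pioglitazone mice 1 to 4 on its brighter probe. Of the pioglitazone values, 3 were below all vehicle values. Means were 3.91 ± 0.723 and 3.09 ± 0.444 (SD, n = 4 each), and the log2 fold change came to -0.33 (standard error 0.17, unadjusted p = 0.0872 and adjusted p = 0.837 in limma). The second Mc1r probe pointed the other way, with means of 0.667 and 0.742, and its log2 fold change was 0.15 (standard error 0.17). The probes of this receptor therefore disagreed in sign, and neither passed the test. They are assigned to different sequences, and only the brighter one to a RefSeq transcript.

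The brightest probes of Mc3r and Mc4r, the receptors that control energy balance in the brain, were above the limit of sensitivity in all 8 ovaries. That of Mc3r is assigned to a RefSeq transcript, but that of Mc4r is not. Mc3r was at 1.23, 1.45, 1.31 and 1.61 in vehicle mice 1 to 4 and at 1.71, 1.55, 1.69 and 1.72 in pioglitazone mice 1 to 4. Only pioglitazone mouse 2 fell inside the vehicle range, and the pioglitazone value was the higher one in all 4 numbered pairs. Means were 1.40 ± 0.166 and 1.67 ± 0.0804 (SD, n = 4 each), which gave a log2 fold change of 0.26 (standard error 0.14, unadjusted p = 0.0920 and adjusted p = 0.837 in limma). The second Mc3r probe, which is not assigned to a RefSeq transcript, had means of 0.620 and 0.549 and a log2 fold change of -0.14. The Mc3r probes thus also disagreed in sign. The brightest Mc4r probe was at 1.90, 1.65, 2.11 and 1.59 in vehicle mice 1 to 4 and at 1.67, 1.47, 1.51 and 1.28 in pioglitazone mice 1 to 4, lower in all 4 pairs, with means of 1.81 ± 0.239 and 1.48 ± 0.162 (SD, n = 4 each). Its log2 fold change was -0.29 (standard error 0.15, unadjusted p = 0.0890 and adjusted p = 0.837 in limma). The other Mc4r probes had means of 0.497 and 0.443 (log2 fold change -0.14) and of 0.206 and 0.275 (0.53). The last of them, the only Mc4r probe assigned to a RefSeq transcript, was under 0.2 in 3 of 8 mice. The bright Mc4r probe alone therefore does not show the receptor transcript in the ovary.

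Mc5r, a receptor known from exocrine glands, was at 0.452, 0.549, 0.642 and 0.572 in vehicle mice 1 to 4 and at 0.683, 0.655, 0.689 and 0.631 in pioglitazone mice 1 to 4. Only pioglitazone mouse 4 lay inside the vehicle range, and all 4 numbered pairs were higher with pioglitazone. Means were 0.554 ± 0.0785 and 0.664 ± 0.0267 (SD, n = 4 each), and the log2 fold change was 0.27 (standard error 0.14, unadjusted p = 0.0907 and adjusted p = 0.837 in limma). Without vehicle replicate 3 its unadjusted p in limma was 0.0333 (4.52% of all probes under 0.05), with a log2 fold change of 0.35. Mc2r, the ACTH receptor of the adrenal cortex and of adipocytes, was under 0.2 in all 4 vehicle-treated mice and in 3 of 4 pioglitazone-treated mice, and reached 0.202 in pioglitazone mouse 1. It was left out of the limma comparison, and its values did not separate the groups (2-sided exact permutation p = 0.343, where 0.0286 is the smallest that 4 against 4 mice allow). That mouse, at the limit, was also the one with the highest adipocyte sum. Pioglitazone mouse 4, with the lowest sum (29.1), was at 0.181, and vehicle mouse 2, with a sum of 90.6, was at 0.0932. The part of adipose tissue in the Mc2r values was not tested.

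Pomc, the precursor of the agonists, was near the limit of sensitivity. It was at 0.371, 0.332, 0.0671 and 0.208 in vehicle mice 1 to 4 and at 0.365, 0.285, 0.293 and 0.329 in pioglitazone mice 1 to 4. All pioglitazone values lay within the vehicle range, which was widened by vehicle mouse 3. The log2 fold change was 0.63 (standard error 0.47, adjusted p = 0.865 in limma) and fell to 0.10 without vehicle replicate 3. Atrn, which agouti needs to act on MC1R, had means of 0.684 ± 0.0852 and 0.620 ± 0.0665 (SD, n = 4 each), with -0.14 as its log2 fold change (standard error 0.15, adjusted p = 0.892 in limma). Its values ran from 0.569 to 0.764 over the 8 mice and overlapped between the groups.

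Of the 15 member probes, 14 passed the filter on low values and were tested, and Mc2r was not. At unadjusted p under 0.05 limma called 0 of these 14 probes, against 5.50% of all probes tested (1.97% higher and 3.53% lower with pioglitazone), and 0 passed an adjusted p of 0.05, as did 0 of all probes. Over all probes this was 603 higher and 1082 lower, a split that was 691 to 799 with quantile and 723 to 823 with cyclic loess normalization, where limma also called 0 member probes. The smallest unadjusted p among the members was 0.0872. The brightest probes of Mc1r, Mc3r, Mc4r and Mc5r had an unadjusted p under 0.1, where 11.9% of all probes had one, and they were singled out after their values were seen. Before adjustment the methods' t-test called Mc3r probe 1 and Mc5r (6.95% of all probes), limma with array weights called Mc5r (6.77%), and limma with the replicate block called Raly probe 2 (8.60%). In 0 of the 15 probes were the groups free of overlap, against 4.58% of the tested probes with all 8 values. Of the 14 tested probes 8 had a positive log2 fold change, with a median of 0.08, while the median of all probes was -0.034. These mice thus gave no member that differed between treatments beyond the spread between mice in the comparison without blocks, while the intervals leave room for changes of up to 1.56-fold in agouti and 2.5-fold in the brighter Raly probe.

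**Figure D3:**
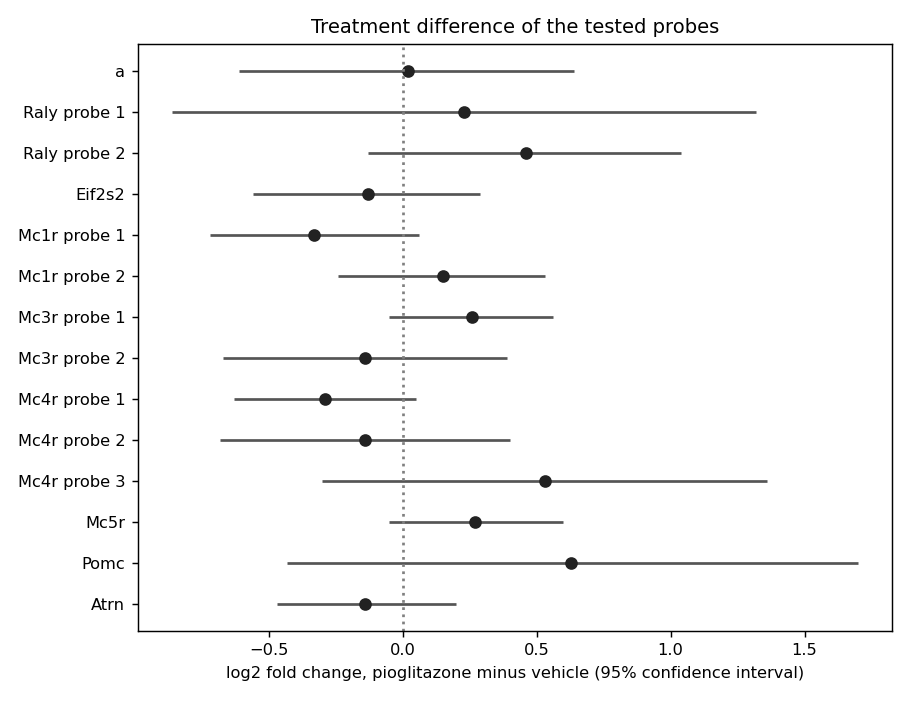
Log2 fold change of the 14 tested probes, pioglitazone minus vehicle, as points with 95% confidence intervals from limma, with 4 mice per group. Every interval includes 0, that of agouti reaching from -0.61 to 0.64 and that of Mc3r probe 1 from -0.05 to 0.56.

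The genes on either side of the locus on chromosome 2 gave no call either. Of 26 listed neighbours 24 had a probe and 23 were tested, and limma called 0 at unadjusted p under 0.05 (5.50% of all probes) and 0 at adjusted p under 0.05. Their median log2 fold change was -0.11, against -0.034 over all probes, and 16 of the 23 were negative. Chmp4b, an ESCRT-III subunit and the nearest tested gene before Raly, had means of 20.2 ± 4.36 and 24.1 ± 15.8 (SD, n = 4 each). Pioglitazone mouse 1, which also held the highest Raly value, was at 47.0 and the other 7 mice between 11.7 and 25.4. Ahcy, which breaks down S-adenosylhomocysteine and is the nearest tested gene after a, had means of 1.69 ± 0.430 and 1.52 ± 0.270. The smallest unadjusted p values belonged to Dynlrb1, a light chain of dynein, with means of 98.6 and 76.8 (log2 fold change -0.35, unadjusted p = 0.0672 in limma), to the peroxisomal gene Pxmp4 (-0.33, 0.195) and to Trpc4ap (-0.24, 0.331). Itch, a ubiquitin ligase gene next to Ahcy, had the highest log2 fold change of the neighbours, 0.50 (adjusted p = 0.888 in limma), with means of 2.03 and 3.29 and with pioglitazone-treated mice from 0.944 to 5.70.

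**Figure D4:**
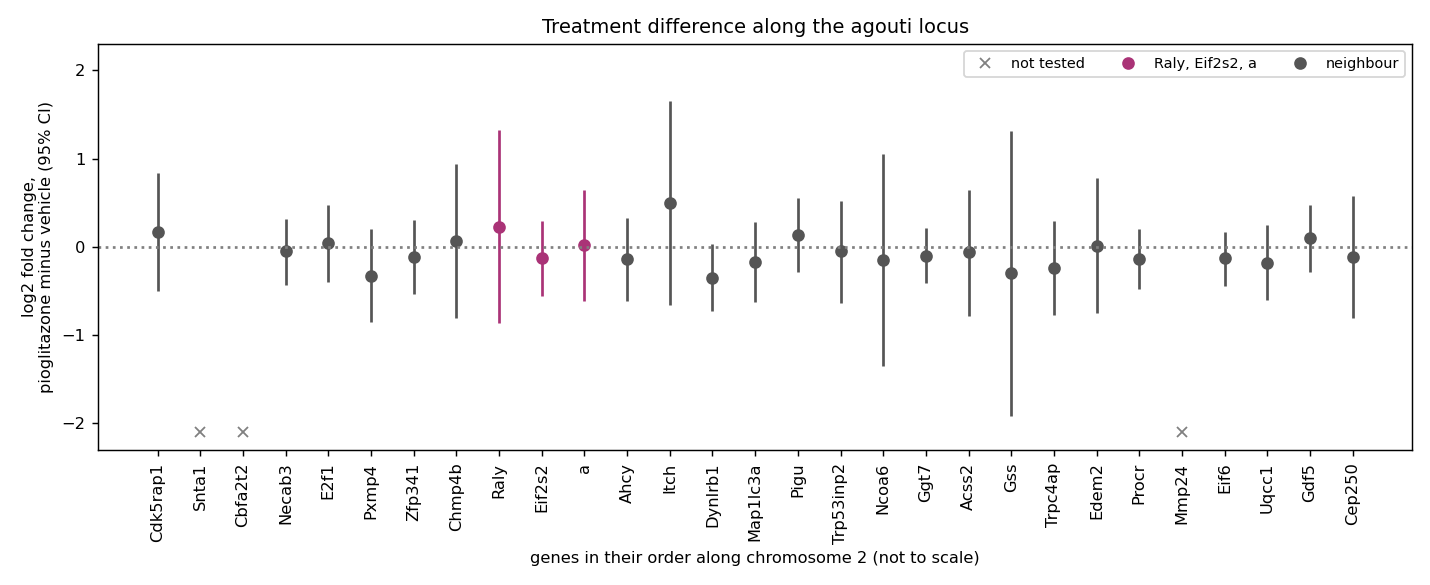
Log2 fold change (pioglitazone minus vehicle, with 95% confidence intervals from limma) of Raly, Eif2s2, a and their listed neighbours in gene order along chromosome 2, not to scale, with the brightest probe of each gene and crosses for genes that were not tested. All intervals include 0, and the point estimates lie between -0.35 and 0.50.

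Among the partners of the melanocortin receptors, none passed the test either, against 5.50% of all probes at unadjusted p under 0.05. Of the antagonists, accessory proteins and attractin relatives 5 of 7 listed genes were tested and 0 were called. Mrap, which carries the ACTH receptor to the cell surface, was bright and uneven, at 18.6, 71.2, 18.7 and 11.4 in vehicle mice 1 to 4 and at 16.0, 12.9, 33.4 and 10.4 in pioglitazone mice 1 to 4. Its highest value was in vehicle mouse 2, the mouse with the second highest adipocyte sum (90.6), while pioglitazone mouse 1, with the highest sum, was at 16.0. Mgrn1, the ubiquitin ligase mahogunin, which acts in the agouti pathway with attractin, had means of 3.31 and 3.86 (log2 fold change 0.22), and Sdc3, a syndecan, of 30.4 and 25.9 (-0.21). Of the enzymes and helpers that process POMC, 7 were tested and 0 called, with a median of -0.17. Pcsk1n, an inhibitor of prohormone convertase, had means of 7.41 and 6.02 (log2 fold change -0.30, unadjusted p = 0.0940 in limma), Scg5, a chaperone of another convertase, of 0.417 and 0.483 (0.20), and Pam, which amidates peptides, of 17.5 and 15.8 (-0.17).

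Downstream of the receptors, 30 genes of Gs, cyclic AMP and PKA signalling were tested, with 0 called, a median log2 fold change of 0.02 and 18 positive values. Of all probes, 5.50% were called at the same threshold, unadjusted p under 0.05. The smallest unadjusted p values were those of the adenylyl cyclase gene Adcy8, with means of 0.437 and 0.630 (unadjusted p = 0.0548 in limma), of Crem, a transcription factor that responds to cyclic AMP, with 3.64 and 2.46 (0.0681), and of the phosphodiesterase gene Pde3b, with 0.161 and 0.226 (0.134), which was under 0.2 in 4 of 8 mice. The Adcy8 groups did not overlap, as in 4.58% of the tested probes with all 8 values. They all but touched, since vehicle mouse 3 and pioglitazone mouse 3 both round to 0.527. Of the genes of the eIF2 complex and its regulators 15 were tested with 0 called and a median of -0.11. Ppp1r15b, a phosphatase subunit that reverses eIF2 phosphorylation, had means of 8.47 and 6.62, the kinase gene Eif2ak4 of 3.02 and 3.58, and the exchange factor subunit gene Eif2b2 of 11.4 and 10.2. Of the hnRNP relatives of Raly 13 were tested with 0 called and a median of 0.04, led by Hnrnpr with means of 1.41 and 2.03, Hnrnpc with 8.62 and 7.60, and Hnrnpa2b1 with 59.0 and 68.0. For these lists the smallest adjusted p in limma lay between 0.837 and 0.880.

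Pigment cells are the classical target of agouti. Of 19 pigment cell genes 3 were under 0.2 in all 8 mice and 15 were tested, with 0 called (5.50% of all probes) and a median of -0.06. Tyr, the rate-limiting enzyme of pigment synthesis, had means of 0.451 and 0.429, and Dct, a further melanin enzyme, of 0.354 and 0.343. Other genes of the list were brighter, among them Kit (means 7.74 and 5.26), Mitf (4.74 and 4.81), Oca2 (4.55 and 4.39) and Pmel (2.15 and 2.78). Members with the smallest unadjusted p were Sox10 (means 1.08 and 0.880), Myo5a (1.60 and 1.32) and Trpm1 (0.796 and 0.905). The sum over this list, 33.0 to 89.8 with vehicle and 50.9 to 71.3 with pioglitazone, includes Kitl, the ligand of the KIT receptor that granulosa cells also make, which gave 49.6 of 89.8 in vehicle mouse 1 and 11.5 of 33.0 in vehicle mouse 3. Keratinocyte markers, read for other skin cells, had sums of 5.43 to 9.07 and 5.55 to 8.77 over 6 genes, with 0 of 5 tested genes called. Krt1 (means 0.216 and 0.128, under 0.2 in 5 of 8 mice), Trp63 (0.807 and 0.959) and Krt5 (0.607 and 0.477) had the smallest unadjusted p.

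Markers of other cells were read beside the members, with 5.50% of all probes called at unadjusted p under 0.05. Of 9 tested adipocyte markers 0 were called, and their sums overlapped between the groups (44.4 to 90.6 and 29.1 to 159), with Cidec (means 9.69 and 8.32), Slc2a4 (1.02 and 1.09) and Lpl (18.2 and 20.5) at the smallest unadjusted p. Adipoq was at 40.2 in pioglitazone mouse 1 and between 1.54 and 10.7 elsewhere. Agouti was 128 in that mouse and 140.4 in vehicle mouse 1, where Adipoq was at 4.71. Of 3 tested adrenocortical markers 0 were called. These were Fdx1 (means 189 and 169), Cyp11b2 (0.472 and 0.437) and Nr0b1 (5.27 and 5.91), all above 0.2 in every mouse. The list's other gene with a probe, Cyp21a1, which defines adrenal steroid synthesis, was under 0.2 in all 8 mice, as Mc2r was in 7. Macrophage markers had 0 called of 7, led by C1qa (means 15.3 and 11.8), Adgre1 (0.231 and 0.182) and C1qc (30.2 and 25.5), and granulosa and luteal markers 0 of 11, led by Nr5a2 (8.10 and 11.6), Hsd3b1 (221 and 176) and Cyp11a1 (53.0 and 33.9). Of 9 oocyte markers 1 was called at unadjusted p under 0.05, where 3.53% of all probes were called lower. This was Padi6, a protein of the oocyte's cytoplasmic lattices, lower with pioglitazone with means of 7.14 and 5.89 (unadjusted p = 0.0485, adjusted p = 0.837 in limma). Its groups did not overlap, as in 4.58% of the tested probes with all 8 values. Zp2 had means of 9.28 and 11.3 and Gdf9 of 5.83 and 5.39.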

How the data were processed

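Arrays of 4 LY mice given vehicle and 4 given pioglitazone were analysed, with groups and replicate numbers taken from the sample titles. The deposited table holds 1 linear intensity per probe and mouse. Per the methods, the authors scanned CodeLink arrays, corrected background in the CodeLink software and scaled each slide to its 50th percentile; deposited medians were 1.007 to 1.014. The methods also name a scaling of each gene to a median, which the values do not show. The code -9999 was read as missing.

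Values were expressed relative to the median of their array, floored at 0.05, log2-transformed and fitted with limma 3.58.1 (lmFit and eBayes) in R 4.3.3, without blocks. Probes entered the test if both groups held 3 or more values and 1 group mean reached 0.2. Benjamini-Hochberg adjustment covered all 30634 probes tested. The number of arrays limits the precision, and separate animals stand behind each array. The fit was tested on simulated data. Ratios are of arithmetic means, and log2 fold changes are from limma. Gene names came from the annotation of the platform, where 21615 have 1 gene symbol, 681 several and 13931 none, and 0 symbols changed on update through RefSeq. No probe with several symbols was named.

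The members, the gene lists and the rule for named genes were chosen with earlier results of these data known. The rule takes every member probe, up to 3 tested genes per list with the smallest unadjusted p (brightest probe per gene), the nearest tested neighbours of the locus, and the 5 probes most like agouti. Named outside it, after values were seen, were Itch, Zp3, Nlrp5, Figla, Tyr, Dct, Kit, Mitf, Oca2, Pmel, Kitl, Adipoq and Cyp21a1. No set test was run.

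Arrays with the same replicate number had correlations, after removal of group means, of 0.515, 0.181, 0.274 and 0.232. Vehicle replicates 1, 3 and 4 each correlated most with the pioglitazone replicate of their own number, but vehicle replicate 2 correlated most with pioglitazone replicate 3. All 4 were over 0.1, so the numbers were taken to pair the arrays, and the blocked value is given where it changes a call. Each array is a separate mouse, so the pairing is an assumption. The labels do not say what a number stands for. Alternatives were the floor, the normalization, the filter, the variance model, array weights, the methods' t-test, the block, each array left out, and the mean over probes.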

Additional observations from a re-analysis of the deposited data

Results flagged for a closer look

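Among the 30 groups of 4 values (15 probes in 2 groups of mice), 2 held a mouse far from the other 3, where chance gives this in about 1 of 20 groups. The brighter Mc1r probe was at 4.99 in vehicle replicate 3, above 3.43 to 3.63 in the other vehicle-treated mice. Mc3r probe 1 was at 1.55 in pioglitazone replicate 2, below 1.69 to 1.72 in the other pioglitazone-treated mice.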

How the results depend on the processing

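Of 170 recomputed log2 fold changes of member probes with all arrays, 163 kept their direction and their side of unadjusted p = 0.05, and 4 passed it that had not. The number of member probes called was 0 in the comparison as reported, 1 with array weights (6.77% of all probes), 2 with the methods' t-test (6.95%) and 1 with the replicate block (8.60%), and 0 or 1 with each array left out. The block pairs the arrays and raised the count over all probes from 1685 to 2635, while leaving out each array gave 737 (without pioglitazone replicate 4) to 2443 (without pioglitazone replicate 1). With array weights the log2 fold changes of agouti (-0.23) and of Raly probe 1 (-0.29) reversed, as did that of Mc4r with the mean over its probes (0.03). With each array left out agouti ran from -0.20 to 0.19, Raly probe 1 from -0.23 to 0.53 and Mc3r probe 2 from -0.27 to 0.07. The relation of agouti and Raly (r = 0.82) was no longer past p = 0.05 with quantile normalization (0.58) and without the 2 arrays farthest from the median (0.81). With the replicate block, where every r rests on only 4 paired differences and is given without a test, it was 0.11. With each array left out, an alternative chosen after seeing the data, the relation ran from 0.79 to 0.90. That of agouti and Eif2s2 (0.23) reversed with quantile normalization (-0.02) and without the 2 farthest arrays (-0.17), was 0.59 with the replicate block, and ran from -0.24 to 0.43. That of Raly and Eif2s2 (-0.10) reversed with the replicate block (0.01), was -0.66 with quantile normalization (exact permutation p = 0.0659), and ran from -0.40 to 0.03. The causes were not tested. Beyond Raly probe 2 and this count, the block changed no call of a member probe. Signals near 0.2 limit Mc2r, Pomc and Mc4r probe 3.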
